A study of Mus musculus with 6 samples.

Results

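The 10 genes described here encode hydroxysteroid dehydrogenases, the enzymes that move hydrogen on and off the oxygen groups of steroids. They comprise 4 genes of the HSD3B family (Hsd3b1, Hsd3b2, Hsd3b6 and Hsd3b7), 5 of the HSD17B family (Hsd17b1, Hsd17b3, Hsd17b7, Hsd17b11 and Hsd17b12) and Hsd11b1. They were selected by gene symbol with earlier results of these data known, so counts of members beside all probe sets are a description. Each had 1 probe set, so that 10 of the 26836 probe sets with a gene symbol (35556 in all) are members. MA-10 is a clonal mouse Leydig tumour line grown in horse serum. Of 6 cultures, 3 were transfected with control siRNA and 3 with siRNA to COUP-TFII, the orphan nuclear receptor encoded by Nr2f2, and total RNA was taken after 48 h. Arrays of the latter are called depleted, and replicate numbers are those of the labels. All 6 cultures had therefore been transfected, and no untransfected cells were used here. The question was which transcripts change when COUP-TFII is depleted. The labels call the replicates biological and give no batch.

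In Leydig cells, cholesterol that has entered the mitochondrion is cut to pregnenolone. HSD3B enzymes then oxidise and isomerise pregnenolone to progesterone, and precursors of androgens in the same way. HSD17B enzymes reduce or oxidise the far end of the steroid, which switches androgens and estrogens between strong and weak forms, although several members of that family act mainly on lipids. HSD11B1 regenerates active glucocorticoid in the endoplasmic reticulum.

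Of the 10 member transcripts, 4 were lower in COUP-TFII-depleted cells and 0 were higher. Hsd3b1 was at 51.0% of its control level, Hsd3b6 at 70.6%, Hsd17b11 at 78.2% and Hsd17b7 at 83.9%. The 4 falls out of 10 compare with 2.92% of all probe sets called lower, and the 0 rises with 1.59% called higher. All 4 of these members lie among the brighter probe sets. Fitted alone, with their own adjustment, the 13418 probe sets above the median brightness gave 1455 falls and 920 rises. Calls were thus more frequent in that fit than among all 26836 in the reported one. It does not show how the reported calls spread over brightness. The 6 members among the brighter probe sets gave 4 falls and 0 rises in that fit. Taking both directions together, 4.51% of all probe sets were called. A probe set was called when its p in limma, a linear model that shares the spread between probe sets, stayed under 0.05 after Benjamini-Hochberg adjustment for all 26836. Each change is the depleted mean minus the control mean in log2 units, and SE is limma's moderated standard error. At an unadjusted p under 0.05, 5 of the 10 members and 19.3% of all probe sets differed. The median change of the 10 was -0.07, against 0.01 for all probe sets, and 8 of the 10 lay below 0, against 43.7% of all. Without depleted replicate 2 the count of member falls was 0. It was 2 without depleted replicate 1, without control siRNA replicate 2 or without control siRNA replicate 3, and 1 when probe sets without a symbol were tested too. All probe sets gave 783 falls and 426 rises, and after each array had been centred on its median 1184 falls and 308 rises. In RNA from whole cultures, fewer cells making a transcript and less of it per cell cannot be told apart.

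**Figure D1:**
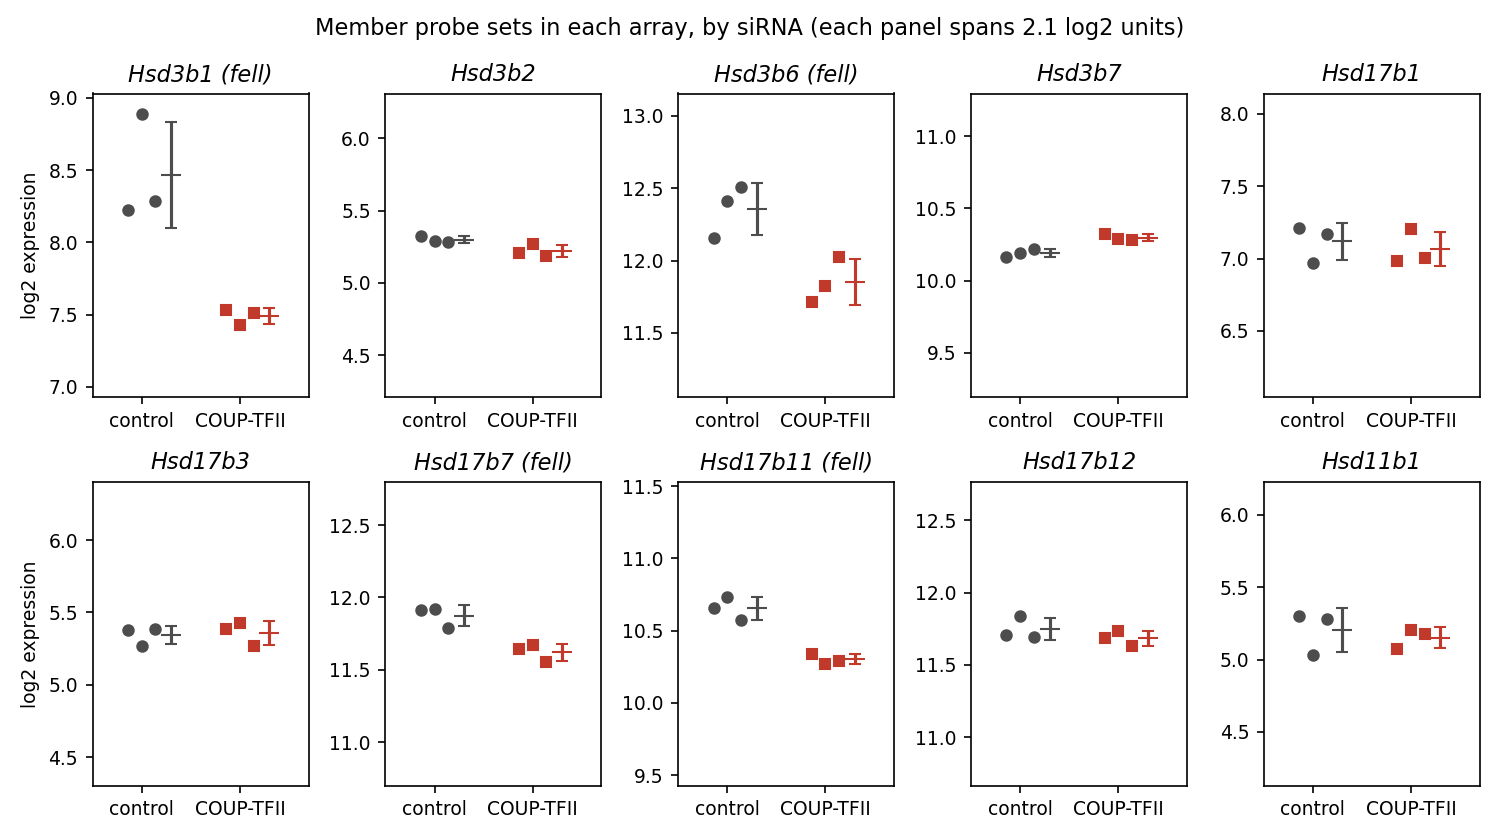
Normalized log2 expression of each member probe set in the 3 control siRNA arrays (grey circles) and the 3 depleted arrays (red squares), with the mean and SD of each group beside the points. Each panel has its own range of equal span, so distances can be compared between panels and levels cannot. In Hsd3b1 the depleted arrays lie between 7.43 and 7.53, below every control array.

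The depletion itself was partial. Nr2f2 read 8.98, 8.97 and 9.19 in control replicates 1 to 3 and 8.25, 8.42 and 8.56 in depleted replicates 1 to 3. The groups did not overlap, and Nr2f2 fell by 0.63 (SE 0.09, limma adjusted p = 0.00802), to 64.4% of control. Array medians lay between 7.56 and 7.60 and averaged 0.03 higher after depletion. Replicates correlated at r = 0.995 to 0.997 across probe sets, which are not independent replicates. The 10 measured Leydig markers all read above the 95th percentile (6.87) of 1208 probe sets of olfactory receptor genes, which are known mainly from sensory neurons and serve here as a dim reference. Of these 10 markers, 7 fell and 0 rose, and their summed log2 level was 114.9 to 115.2 in control arrays and 112.0 to 112.2 in depleted arrays. Of the 7, the lipoprotein receptor gene Scarb1, passed in 0 of the 6 fits that left out 1 array. Their part in the member results was not tested. Markers of other cell types at or under that reference numbered 1 of 7 for Sertoli cells, 3 of 7 for germ cells, 5 of 7 for macrophages, 2 of 5 for endothelium, 1 of 5 for peritubular cells and 2 of 4 for adrenal cortex. The summed level of each of these 6 lists overlapped between the groups, at 54.5 to 55.0 in both groups for Sertoli markers and 44.2 to 44.4 against 44.1 to 44.4 for macrophage markers. The germ cell helicase gene Ddx4 was the 1 marker on these 6 lists that was called, at -0.32 (SE 0.06, limma adjusted p = 0.0217), and it passed in 2 of the 6 fits that each left out 1 array, those without control replicate 1 and without depleted replicate 3.

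Hsd3b1 and Hsd3b6 are the HSD3B genes that mouse Leydig cells are known to use, and they lie next to each other on chromosome 3. The 250 bases before their annotated starts are shown because both transcripts fell. They are RefSeq sequence of build GRCm38.p6, minus strand, at chr3:98859795-98860044 for Hsd3b1 and chr3:98814444-98814693 for Hsd3b6, written in the direction of transcription. Capitals mark GATAA or its reverse complement TTATC, the core read by GATA factors.
Hsd3b1: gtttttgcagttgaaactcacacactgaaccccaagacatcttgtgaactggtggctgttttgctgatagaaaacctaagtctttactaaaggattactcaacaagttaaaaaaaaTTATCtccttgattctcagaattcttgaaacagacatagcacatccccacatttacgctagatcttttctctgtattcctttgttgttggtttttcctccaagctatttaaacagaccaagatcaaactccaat
Hsd3b6: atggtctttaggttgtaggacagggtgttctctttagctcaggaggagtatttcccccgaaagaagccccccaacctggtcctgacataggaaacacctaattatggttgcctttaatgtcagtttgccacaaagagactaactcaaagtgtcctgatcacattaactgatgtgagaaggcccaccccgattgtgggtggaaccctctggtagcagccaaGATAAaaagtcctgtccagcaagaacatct
The GATAA match begins 134 bases before the Hsd3b1 start on the opposite strand and 30 bases before the Hsd3b6 start on the same strand. GATAA was found on either strand in 3 of the 9 members with a RefSeq promoter entry (the other one is Hsd3b7) and in 22.6% of 32851 promoter windows of this length. The nuclear receptor half-site AGGTCA was found on either strand in 0 of the 9 and in 14.02% of all windows. TATAAA, the TATA box, was found on either strand in 0 of the 9 and in 12.4% of all windows. In the 9 member windows only GATAA had matches, so no matches of different motifs overlapped there. A missing match says only that these letters are not in this stretch. The Hsd3b1 and Hsd3b6 windows were 46.4% identical in a global alignment, within the 40.5% to 49.6% of the 51 pairs of windows of family genes that do not both belong to the chromosome 3 cluster.

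Hsd3b1 had the largest change of the 10. It read 8.22, 8.89 and 8.29 in control arrays against 7.53, 7.43 and 7.51 after depletion. Control replicate 2 stood highest, the depleted arrays lay close together, and the groups did not overlap. Hsd3b1 fell by 0.97 (SE 0.15, 95% interval -1.32 to -0.63, limma adjusted p = 0.0117), from 8.47 ± 0.37 to 7.49 ± 0.06 (SD, n = 3 per group). Without control replicate 2 the change was -0.76. Hsd3b1 missed the threshold without depleted replicate 2 (limma adjusted p = 0.0651) and when probe sets without a symbol were tested too (limma adjusted p = 0.0570). The array that read highest for Hsd3b1 was not the one that read highest for Nr2f2, which was control replicate 3.

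Hsd3b6 read 12.15, 12.41 and 12.51 in control arrays against 11.71, 11.83 and 12.02 in the depleted arrays. The control arrays again stood above all depleted arrays, here with control replicate 3 highest. Hsd3b6 fell by 0.50 (SE 0.10, 95% interval -0.74 to -0.27, limma adjusted p = 0.0334). Its probe set was at percentile 96.6 of mean expression and that of Hsd3b1 at 54.5, which does not order the amounts of the 2 transcripts, since probes differ in brightness. The call for Hsd3b6 was lost without control replicate 2 (limma adjusted p = 0.0904), control replicate 3 (0.0997), depleted replicate 1 (0.109) or depleted replicate 2 (0.123). It was also lost with all probe sets tested (0.103).

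The log2 ratio of Hsd3b1 to Hsd3b6 within an array was -3.93, -3.53 and -4.22 in control replicates 1 to 3 and -4.18, -4.40 and -4.51 in depleted replicates 1 to 3. These ranges overlapped, so an unequal fall of the 2 paralogs was not resolved with 3 arrays a group. The longer gene description that would list transcripts shared between paralogs was not used here for the 4 HSD3B members, and cross-hybridisation between them was not tested.

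Hsd3b2, a paralog known from mouse kidney and liver, was dim. It read 5.33, 5.29 and 5.28 in control arrays against 5.21, 5.27 and 5.19 after depletion, and 49.2% of olfactory receptor probe sets were as bright or brighter. The groups did not overlap, but the change of -0.08 (SE 0.05) was not called (limma adjusted p = 0.396). Hsd3b7 encodes the family member that acts on hydroxylated cholesterol in bile acid synthesis. It read 10.16, 10.19 and 10.22 in control arrays against 10.33, 10.29 and 10.28 after depletion, higher in every depleted array than in any control. The change of 0.11 (SE 0.04) was not called (limma adjusted p = 0.231), and its 95% interval ran from 100.4% to 115.7% of control. A further probe set, assigned to the histone methyltransferase gene Setd1a, also lists Hsd3b7 transcripts, and it differed by 0.16 (SE 0.05) without a call (limma adjusted p = 0.116).

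Members whose groups did not overlap numbered 5 with lower values and 1 with higher values, where 12.2% and 13.0% of all probe sets did so. The 2-sided exact permutation test has a smallest possible p of 0.1 with 3 arrays against 3, and it gave 0.1 for these 6 members.

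Hsd17b11 encodes a protein of lipid droplets that oxidises androgen metabolites. It read 10.66, 10.73 and 10.57 in control arrays against 10.34, 10.27 and 10.29 in the depleted arrays. The groups were clearly apart, with a gap wider than the range within either group. Hsd17b11 fell by 0.35 (SE 0.05, 95% interval -0.48 to -0.23, limma adjusted p = 0.0114). It passed under 13 of 14 alternative settings, the exception being the fit without depleted replicate 2 (limma adjusted p = 0.0637).

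Hsd17b7 reduces a sterol ketone in the late steps of cholesterol synthesis and can also make estradiol. It read 11.91, 11.92 and 11.79 in control arrays against 11.64, 11.67 and 11.56 in the depleted arrays. All control arrays were above all depleted arrays. Hsd17b7 fell by 0.25 (SE 0.06, 95% interval -0.38 to -0.12, limma adjusted p = 0.0426). This call was lost in each of the 6 fits that left out 1 array (limma adjusted p = 0.0560 to 0.126), and in 3 further settings.

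**Figure D2:**
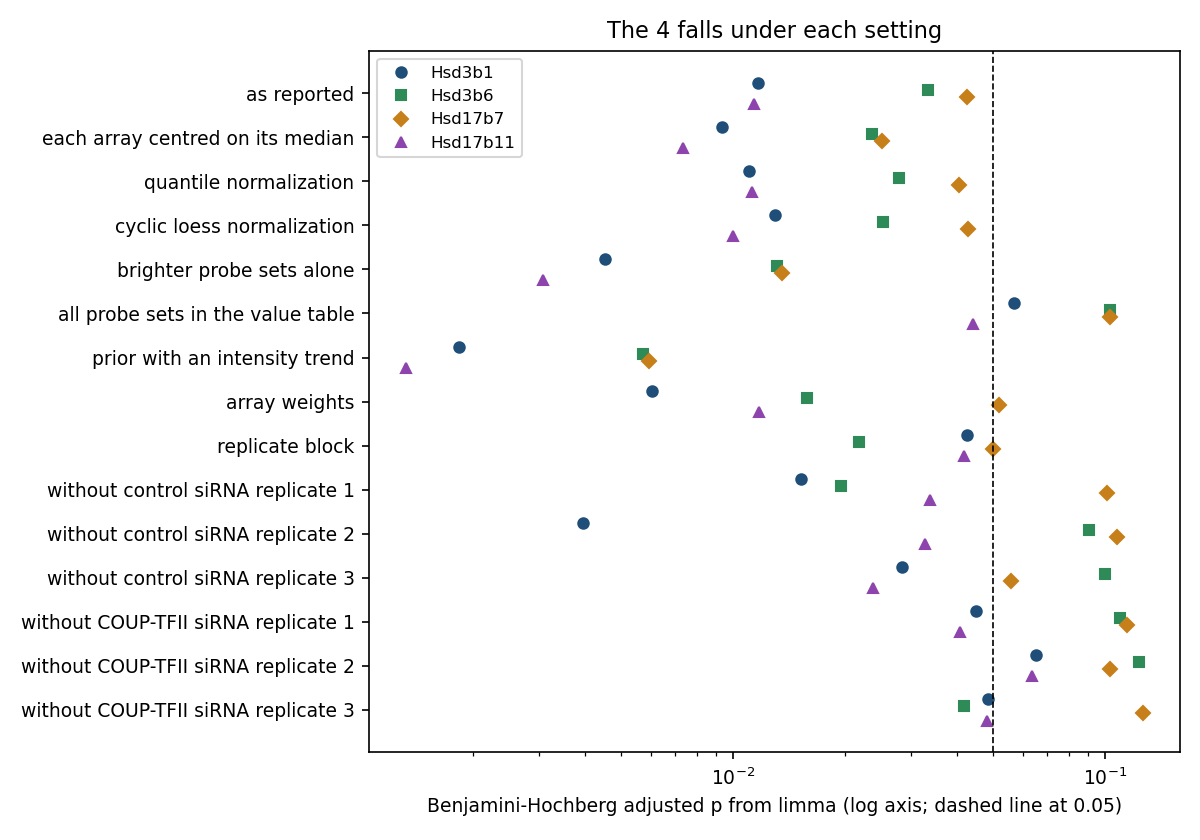
Adjusted p of the 4 falls (log axis) in the reported fit and under each of 14 alternative settings, with a dashed line at 0.05. Hsd17b11 lies left of the line in all settings but 1, Hsd3b1 in all but 2, Hsd3b6 in all but 5, and Hsd17b7 lies at or right of it in 9.

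Of the other HSD17B members none was called. Hsd17b12 encodes the ketoacyl-CoA reductase of fatty acid elongation. It read 11.71, 11.83 and 11.70 in control arrays against 11.69, 11.73 and 11.63 after depletion. The groups overlapped, and the change was -0.06 (SE 0.06, 95% interval 87.7% to 104.6% of control). Hsd17b3 makes testosterone from androstenedione and marks the adult Leydig cell. It read 5.38, 5.27 and 5.39 in control arrays against 5.38, 5.43 and 5.27 after depletion, and 45.0% of olfactory receptor probe sets were as bright or brighter. Its difference of 0.01 (SE 0.06) turned to -0.02 after median centring and to -0.01 after quantile or cyclic loess normalization, and was not called in any of these. Hsd17b1, which makes estradiol from estrone, read 7.21, 6.97 and 7.17 in control arrays against 6.99, 7.20 and 7.01 after depletion. It differed by -0.05 (SE 0.08), and 3.15% of olfactory receptor probe sets reached its brightness.

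Hsd11b1 was also dim, with 52.2% of olfactory receptor probe sets as bright or brighter. It read 5.30, 5.03 and 5.28 in control arrays against 5.07, 5.21 and 5.18 in depleted arrays. The COUP-TFII siRNA values lay within the control range, and the change of -0.05 (SE 0.08) had a 95% interval of 85.3% to 109.1% of control. For this member, Hsd3b2 and Hsd17b3, all within the dim reference, a change in a weakly expressed transcript could have gone undetected.

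In the authors' deposited table of all probe sets, the ratio of COUP-TFII siRNA over control was 0.542 for Hsd3b1, 0.695 for Hsd3b6, 0.776 for Hsd17b11 and 0.835 for Hsd17b7. The value table gave 0.510, 0.706, 0.782 and 0.839 for these genes. For Hsd17b3 the authors' deposited table had a ratio of 0.986, on the other side of 1 from the 1.01 of the value table. Hsd3b1 was the 1 member among the 334 probe sets in the authors' deposited list of changed genes.

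Beyond the 10 genes, 14 of 17 further genes of the wider family were measured, of which 2 rose and 0 fell, where 1.60% and 3.03% of all genes did, taking the brightest probe set of each. Both are hydroxysteroid dehydrogenase-like genes. Hsdl2 read 10.83, 10.86 and 10.76 in control arrays against 11.10, 11.15 and 11.10 after depletion, apart in every array, and rose by 0.30 (SE 0.05, limma adjusted p = 0.0130). It passed in 3 of the 6 fits that left out 1 array, and was lost without control replicate 3, depleted replicate 1 or depleted replicate 2 (highest limma adjusted p = 0.0683). Hsdl1 rose by 0.36 (SE 0.08, limma adjusted p = 0.0390), and passed in 1 of the 6 such fits, that without control replicate 2. Hsd17b2, which oxidises estradiol and testosterone to weaker forms, lay under the dim reference in all 6 arrays, differed by 0.27 (SE 0.08) and was not called (limma adjusted p = 0.0977). H6pd, which supplies NADPH to HSD11B1, differed by -0.12 (SE 0.05, limma adjusted p = 0.194). The median change of these 14 genes was -0.02, against 0.01 for all 24008 genes. Hsd3b4 shares its 2 probe sets, which hold identical values, with Gm10681 and was not counted.

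**Figure D3:**
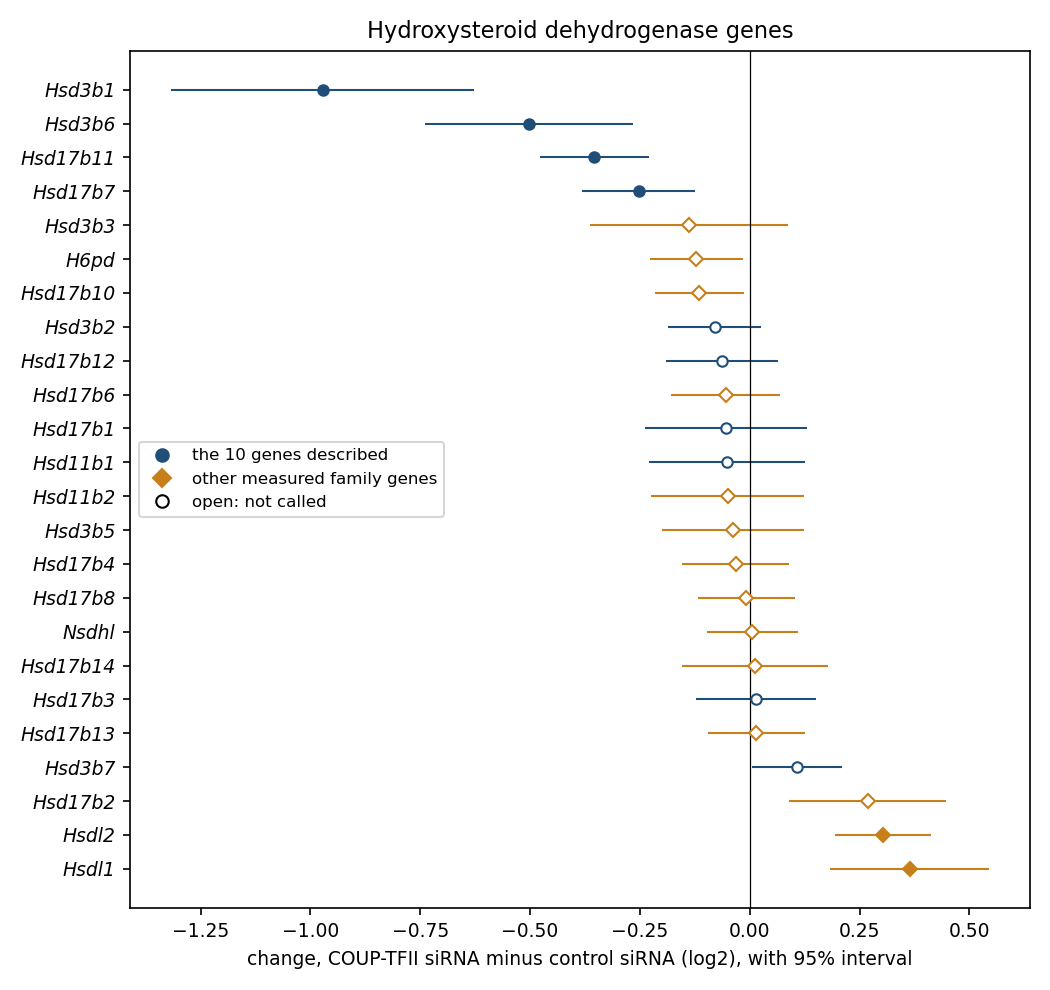
Change in log2 expression of the 10 genes (blue circles) and of 14 further family genes (orange diamonds), with the 95% interval of limma, and open symbols where not called. Hsd3b1, Hsd3b6, Hsd17b11 and Hsd17b7 lie lowest, and Hsdl2 and Hsdl1 are the called rises.

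Enzymes and carriers before and after the HSD step fell in part. Of 23 other measured genes of steroid synthesis and metabolism, 5 fell and 0 rose, where 3.03% and 1.60% of all genes did. Their median change was -0.14, against 0.01 for all genes. With the replicate number as a block, 6 fell and 1 rose. Star, whose product carries cholesterol into the mitochondrion, fell by 0.78 (SE 0.05), and Fdx1, the electron donor for side-chain cleavage, by 0.38 (SE 0.04). Akr1c14, a reductase of ketosteroids, fell by 0.73 (SE 0.07). Akr1c18, the reductase that inactivates progesterone, read 7.24, 7.50 and 7.08 in control arrays and 6.40, 6.61 and 6.51 in depleted ones. It was called lower (limma adjusted p = 0.00652), but all 3 depleted arrays lay under the dim reference of 6.87, so the size of its fall is not given. The fifth was Cyp11a1, the side-chain cleavage enzyme that feeds HSD3B with pregnenolone, which fell by 0.33 (SE 0.06) and missed the threshold without depleted replicate 2 (limma adjusted p = 0.0798) or 3 (0.0651). It was named after its values were seen. Star, Fdx1 and Cyp11a1, which act before HSD3B, were thus called in the same direction as Hsd3b1 and Hsd3b6. Cyp17a1, which takes progesterone on to androgens, differed by 0.34 (SE 0.13) without a call in this fit on group alone. It read 10.54, 10.60 and 10.99 in control replicates 1 to 3 and 10.87, 11.01 and 11.26 in depleted replicates 1 to 3. At each number the depleted array was the higher, though the groups overlapped.

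Among 21 measured regulators of HSD genes, 3 fell and 2 rose, where 3.03% and 1.60% of all genes did. The 3 falls include Nr2f2, the target of the siRNA. Beside Nr2f2, the luteinizing hormone receptor gene Lhcgr fell by 0.35 (SE 0.05, limma adjusted p = 0.00858). Nr0b1, whose product DAX-1 represses steroidogenic genes, rose by 0.25 (SE 0.05). Stat5a, a transcription factor downstream of the prolactin receptor, fell by 0.23 (SE 0.05), and Creb1, a factor activated by cyclic AMP that was named after its values were seen, rose by 0.24 (SE 0.05). Nr0b1, Stat5a and Creb1 passed in 0 of the 6 fits that left out 1 array, with limma adjusted p up to 0.131, and Creb1 also missed the threshold after median centring (0.0569). After that centring the list had 5 falls and 1 rise.

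The lists around single members held 1 or 2 calls each, where 3.03% of all genes were called lower and 1.60% higher. In cholesterol synthesis from squalene synthase onward, the pathway of Hsd17b7, 1 of 12 genes fell and 0 rose. It was Fdft1, squalene synthase, at -0.26 (SE 0.05, limma adjusted p = 0.0220). This enzyme makes squalene and so acts before the post-squalene steps, and no gene of those steps was called in this fit. Fdft1 passed in 1 of the 6 fits that left out 1 array, that without control replicate 1. Tm7sf2 and Ebp, sterol reductase and isomerase genes, differed by -0.28 (SE 0.07) and -0.23 (SE 0.07), not called. Of 16 lipid droplet genes, the setting of Hsd17b11, 2 fell and 0 rose. These were the perilipin genes Plin2 at -0.28 (SE 0.05) and Plin5 at -0.29 (SE 0.07), with Plin3 at -0.22 (SE 0.05) just short of the threshold (limma adjusted p = 0.0525). Plin2 passed in the 3 fits that left out a control array and in 0 of the 3 that left out a depleted array (highest limma adjusted p = 0.0776). Plin5 passed in 1 of the 6, that without control replicate 2.

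In fatty acid elongation, the pathway of Hsd17b12, 1 of 12 genes rose and 0 fell. It was the elongase gene Elovl4, by 0.56 (SE 0.05, limma adjusted p = 0.00135), which passed in all 6 fits that left out 1 array. Of 11 bile acid synthesis genes, the pathway of Hsd3b7, 1 rose and 1 fell. These were Slc27a5 at 0.23 (SE 0.05) and Cyp39a1 at -0.25 (SE 0.06), each of which passed in 0 of those 6 fits. All 6 arrays of Slc27a5 lay under the dim reference. Of 12 glucocorticoid receptor genes and targets, which respond to the hormone that HSD11B1 makes, the clock gene Per1 fell by 0.29 (SE 0.06, limma adjusted p = 0.0388) and 0 rose, and Per1 passed in 1 of the 6 fits, that without depleted replicate 3.

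**Figure D4:**
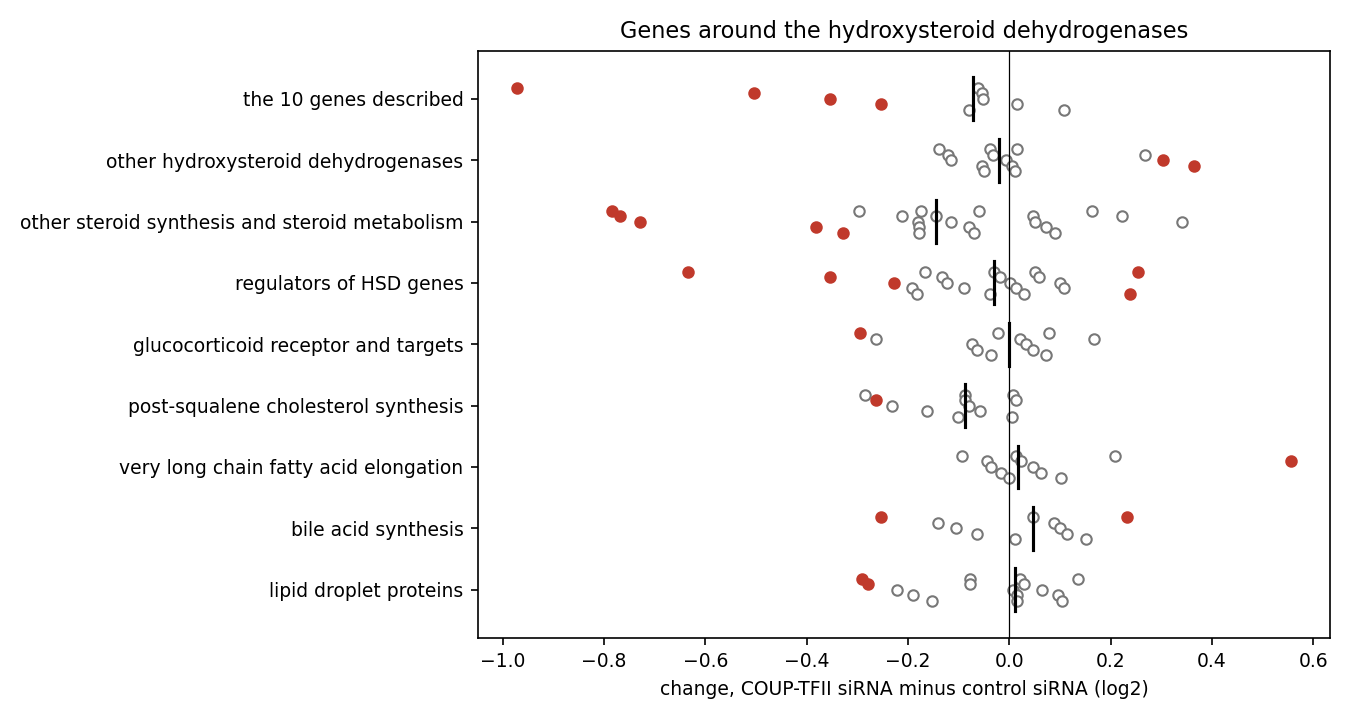
Change in log2 expression of the 10 genes and of the members of 8 lists of related genes. Filled red points were called, open points were not, and the black bar is the median, which lies at -0.14 for other steroid synthesis genes and at 0.02 for fatty acid elongation.

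Along chromosome 3, the HSD3B cluster was read in RefSeq gene order with 3 protein-coding genes on either side, a window chosen after member values were known. Within the cluster Hsd3b5 and Hsd3b3 were dim and differed by -0.04 (SE 0.07) and -0.14 (SE 0.10), not called. Hao2, a peroxisomal hydroxyacid oxidase gene and the next gene beyond Hsd3b1, fell by 0.52 (SE 0.08, limma adjusted p = 0.0101), so that Hsd3b6, Hsd3b1 and Hao2 are 3 called falls in a row. Hao2 missed the threshold without depleted replicate 2 (limma adjusted p = 0.0535). Beyond it, Wars2 differed by -0.20 (SE 0.05) and Tbx15 by -0.09 (SE 0.05), not called. On the other side Phgdh and Zfp697 differed by -0.01 (SE 0.09) and 0.09 (SE 0.05), not called.

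**Figure D5:**
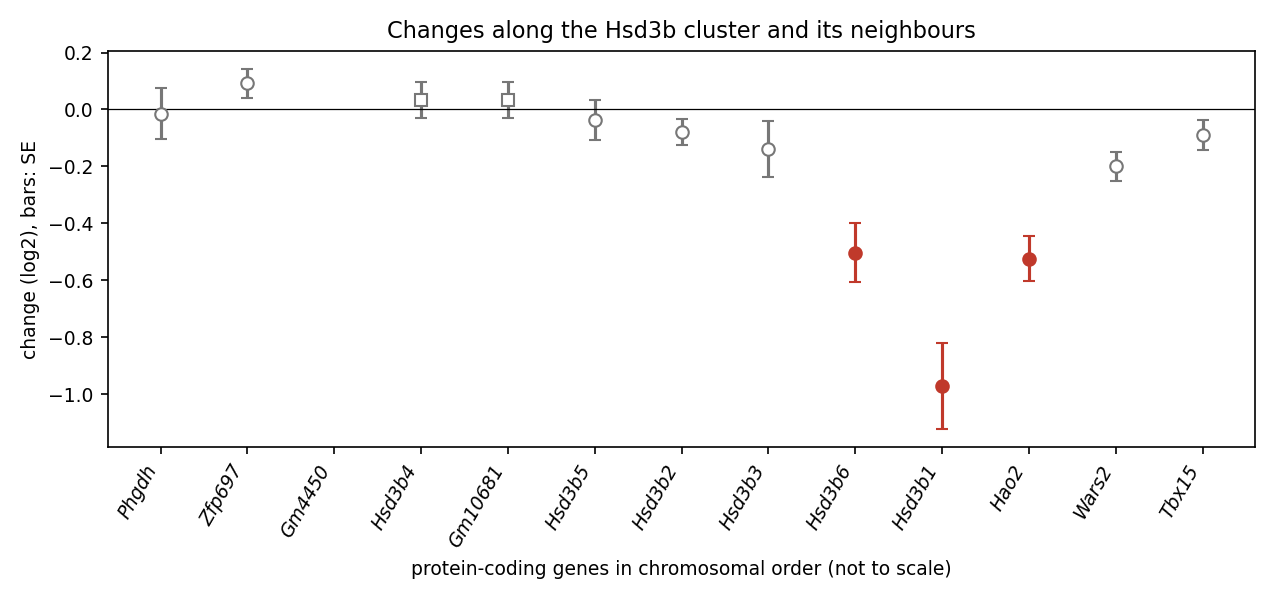
Change in log2 expression with SE for the genes of the HSD3B cluster and their neighbours in chromosomal order, with filled red points where called and squares for Hsd3b4 and Gm10681, which share probe sets. Hsd3b6, Hsd3b1 and Hao2 lie next to each other at -0.50, -0.97 and -0.52, and Gm4450 has no point.

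The profile most like that of Hsd3b1 over the 6 arrays, among 10542 genes of above-median brightness, was that of Lgmn, which encodes the lysosomal protease legumain. Likeness was the root mean square difference between profiles centred on their own means, which was 0.169 for Lgmn against a median of 0.528 for all genes searched. Nqo1, a quinone reductase gene, followed at 0.176 and Gsta3, a glutathione transferase gene, at 0.178. The cadherin-related gene Cdhr5 and Star both stood at 0.196. Star read 10.98, 11.11 and 10.99 in control arrays against 10.27, 10.23 and 10.22 after depletion, with control replicate 2 highest as for Hsd3b1. These genes were picked for their likeness over the same arrays, so the values are a description.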

How the data were processed

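RNA of 6 MA-10 cultures was measured on Affymetrix arrays with biotin labelling, per the labels' protocols. The submitters' processing notes name Partek 7.0. How probes were background-corrected, summarised and normalized is not given in the sources used. The deposited value table holds normalized log2 expression. That scale was inferred from the range of the numbers and from group differences, which follow the log2 of the authors' ratios. The deposited tables of the authors also give a linear ratio and an unadjusted p-value per probe set, which were only set beside the results. Scanner files and detection calls were not used here, and the number of arrays limits the precision.

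Probe sets with a symbol were fitted with limma 3.58.1 (lmFit and eBayes) in R 4.3.3 on group alone, and p-values were adjusted over all 26836. For genes on several probe sets, the brightest with a single symbol was taken. Named genes are all members, Nr2f2 and up to 4 genes of each list, called ones first and then by p. Genes outside that rule (Cyp11a1, Creb1, Cyp17a1, Setd1a, Scarb1, Ddx4 and the chromosome 3 neighbours) were named after their values were seen, a result beyond the 3 nearest neighbours is not reported here, and 5 genes were named for likeness to the member with the largest change. Members and lists were chosen with earlier results of these data known. Promoter windows are RefSeq, build GRCm38.p6, read with biopython 1.88. Simulated data with 200 changed probe sets among 26836 gave back 18% of 1.2-fold, 56% of 1.3-fold, 94% of 1.5-fold and 98% of 2-fold changes, with 4 false among 137 calls. The simulated noise was independent and drawn from limma's fitted prior, so these shares need not hold for the real arrays. The 14 alternative settings covered normalization, filter, prior, array weights, the replicate number as a block and each array left out.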

Additional observations from a re-analysis of the deposited data

How the results depend on the processing

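All 4 falls kept their direction under all 14 alternatives. With all 35556 probe sets tested, 1 member fell (Hsd17b11), and Hsd3b1, Hsd3b6 and Hsd17b7, at -0.97, -0.50 and -0.25, missed the threshold, with 291 falls and 145 rises over all. Array weights gave Hsd17b7 -0.22 (limma adjusted p = 0.0519). The reported 783 falls and 426 rises over all probe sets became 1184 falls after median centring, 1455 and 920 among brighter probe sets, and 1317 and 815 when the prior followed intensity. Leaving out 1 array gave 210 to 518 falls and 96 to 240 rises, and 0 to 3 member falls. In those fits Hsd3b1 ranged from -1.09 to -0.76, Hsd3b6 from -0.60 to -0.43, Hsd17b11 from -0.40 to -0.32, Hsd17b7 from -0.30 to -0.22 and Hsd17b3 from -0.0225 to 0.0613. Hsd17b3 turned to -0.0158 after median centring, to -0.0100 after quantile and to -0.0115 after cyclic loess normalization. Median centring also gave 5 falls and 1 rise among regulators, 2 falls in cholesterol synthesis, 4 among lipid droplet genes and 0 rises in bile acid synthesis. The causes of these shifts were not tested.

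Same-numbered arrays deviated together only in part (r = 0.108, -0.0482 and 0.172 for numbers 1 to 3). Arrays of different numbers gave r from -0.225 to 0.128. These values do not settle whether the numbers are pairs, and the reported fit did not take them as pairs. These r are over all probe sets, and single genes could follow the number more closely. Hsd3b6 rose from number 1 to number 3 in both groups. With the replicate number as a block, all probe sets gave 484 falls and 227 rises, and Hsd17b7, at -0.25, had a limma adjusted p of 0.05003, just above the threshold. Hsd3b6 had an SE of 0.05 with the block against 0.10 in the reported fit, and stayed called (limma adjusted p = 0.0218). Hsd3b1 and Hsd17b11 also stayed called (limma adjusted p = 0.0425 and 0.0417). The block ended the calls of Hsdl1, Nr0b1, Creb1, Stat5a, Per1, Fdft1, Cyp39a1, Slc27a5, Scarb1 and Ddx4 (limma adjusted p = 0.0516 to 0.0981). The block left 1 rise among other family genes, 0 rises among regulators and 0 falls among glucocorticoid genes. It left 0 falls in cholesterol synthesis, and 0 falls and 0 rises in bile acid synthesis. Among steroid genes the block added calls, with 6 falls and 1 rise against 5 and 0 in the reported fit.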
